A study of Mus musculus with 36 samples.

Results

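The 8 genes described here govern the cell's polyamine supply in the mouse: the synthesis enzymes Odc1, Amd1, Srm and Sms, the antizymes Oaz1 and Oaz2, the antizyme inhibitor Azin1, and the catabolic enzyme Sat1. They were chosen by symbol from 25239 genes in the table of P-body and cytoplasm libraries, 25229 genes in the table of polysome libraries and 48440 genes in the table of Ago2-KO libraries. All 8 were present in each table, and all 8 passed the filter of 10 reads or more, over all libraries in a fit, in each of the 18 comparisons. The study measured RNA by sequencing in P-bodies, purified by fluorescence sorting of GFP-LSM14A particles, and in the cytoplasm from which they were sorted. In a separate experiment it measured ribosome-bound and total RNA with and without degradation of DDX6, a helicase needed for P-body assembly. The comparisons asked which RNAs were held in P-bodies in each cell type, and how ribosome loading changed when DDX6 was removed. There were 36 libraries in 16 groups.

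Naive embryonic stem (ES) cells were the v6.5 line kept in 2i and LIF, and primed cells were the same line moved to activin A and bFGF. Mouse embryonic fibroblasts (MEFs) came from embryos and were compared unreprogrammed. Reprogramming MEFs carried a doxycycline-inducible cassette of Oct4, Klf4, Sox2 and c-Myc in Col1a1, rtTA at Rosa26 and a Pou5f1-EGFP reporter. They were taken at day 3 with a control or a Nudt21 short hairpin RNA. Their induction medium held doxycycline, LIF and ascorbic acid, and the study's MEF growth medium lists none of these. The part of the medium in differences between day 3 cells and MEFs was not tested. The Ago2-KO ES line was a clone made by paired CRISPR cutting, kept in the same naive state. Every P-body and cytoplasm group carried lentiviral GFP-LSM14A and had 2 libraries. The DDX6 degron line was a clone of GFP-LSM14A ES cells with an FKBP-based degradation tag and mCherry on both Ddx6 alleles. Both of its arms carried the tag and received cycloheximide before lysis, and each group had 3 libraries. The treated arm also received dTAG-13 for some hours only, which the study calls an acute loss of DDX6. The cytoplasm library was an aliquot of the material before sorting, so it still held P-bodies. The study's text calls the naive, primed and polysome libraries biological replicates, while the labels do not say whether libraries of a group came from separate cultures, and p-values here measure only the spread between these libraries.

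Polyamines (putrescine, spermidine and spermine) are small positively charged molecules that bind RNA and are needed for growth and translation. Ornithine decarboxylase (Odc1) makes putrescine, S-adenosylmethionine decarboxylase (Amd1) supplies the aminopropyl donor, and spermidine synthase (Srm) and spermine synthase (Sms) extend the chain. Antizymes bind ornithine decarboxylase and send it to the proteasome, the antizyme inhibitor Azin1 is an inactive decarboxylase relative that captures antizyme, and Sat1 acetylates polyamines for export or breakdown. The family is known for control at translation: polyamines promote a frameshift during antizyme synthesis, and an upstream reading frame represses Amd1 when polyamines are plentiful.

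The antizyme shift site is the feature by which these mRNAs sense polyamines, and it lay in the exons of both antizymes. It is shown here with its surroundings as read from the GENCODE M21 transcripts on mm10. Capitals mark the last codon before the shift and the stop codon of the first frame (TCCTGA). The Oaz1 window is chr10:80828283-80828309 on the plus strand and the Oaz2 window is chr9:65686260-65686286 on the plus strand. The window of Oaz1-ps, a processed copy of Oaz1, is chr17:17345922-17345948 on the minus strand. The windows of Oaz1 and Oaz2 shared 25 of 27 bases, and that of Oaz1-ps was the same as that of Oaz1.
Oaz1: cggtggtgcTCCTGAtgtccctcaccc
Oaz2: ctgtggtgcTCCTGAtgcccctcaccc
Oaz1-ps: cggtggtgcTCCTGAtgtccctcaccc

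The short upstream reading frame of Amd1 is shown because it is the polyamine-sensing element of that mRNA. Capitals mark its start and stop codons. In Amd1 it occupied chr10:40302155-40302175 on the minus strand, in the 5′ UTR and 296 bases before the coding start. Amd2, a near-identical copy of Amd1 on the same chromosome, held the same letters at chr10:35711860-35711880 on the minus strand, 300 bases before its coding start.
Amd1: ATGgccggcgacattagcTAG
Amd2: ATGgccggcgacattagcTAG

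Upstream reading frames were found in 5 of the 8 members, with 3 in Azin1 and Sms, 2 in Odc1, and 1 in Amd1 and Sat1, against 48.2% of 20683 protein-coding genes with at least 1. Oaz1, Oaz2 and Srm had none, and their 5′ UTRs were also the shortest, at 104, 198 and 117 bases. The members spanned a wide range of base composition. Transcript GC content was 39.3% for Azin1, 41.4% for Amd1, 43.5% for Sms and 44.3% for Sat1, below the all-gene median of 49.2%. It was 52.4% for Odc1, 53.2% for Oaz2, 56.9% for Oaz1 and 59.8% for Srm, above it.

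On mm10 the synthesis genes lie at chr12:17544794-17551505 (Odc1, plus strand), chr10:40287458-40302186 (Amd1, minus), chr4:148591503-148594993 (Srm, plus) and chrX:157443855-157492287 (Sms, minus). Oaz1 lies at chr10:80826656-80829290 (plus), Oaz2 at chr9:65668001-65690300 (plus), Azin1 at chr15:38487427-38519266 (minus) and Sat1 at chrX:155213132-155216449 (minus). Values are counts per gene, over exons in the P-body and cytoplasm table and estimated by salmon in the polysome and Ago2-KO tables. They do not separate the antizyme frames or the parts of a transcript.

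Amd1 and Oaz1 share reads with their copies, which limits what their own counts mean. Amd1 and Amd2 transcripts were identical at 3190 of 3204 aligned bases (99.6%), and Oaz1 and Oaz1-ps at 680 of 681 (99.9%). In the P-body and cytoplasm table the 2 genes of each pair held the same value, within 0.005 reads, in 20 of 20 libraries, so that each was given 50% of the shared reads. In the polysome table Amd1 was at 0 in 6 of 12 libraries and took between 0 and 16.1% of the pair's reads in all 12, while Oaz1 took 54.1% to 64.3%. In the Ago2-KO table Amd1 took 95.5% to 96.1% and Oaz1 99.5% to 99.7%. The Amd1 count of the polysome table is therefore uncertain, and there the sum over Amd1 and Amd2 is given, and likewise the sum over Oaz1 and Oaz1-ps, an alternative chosen after seeing the data. Odc1 and Azin1, which are related in sequence, were identical at only 824 of 1322 aligned coding bases (62.3%), and Oaz1 and Oaz2 at 359 of 556 (64.6%).

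**Figure D1:**
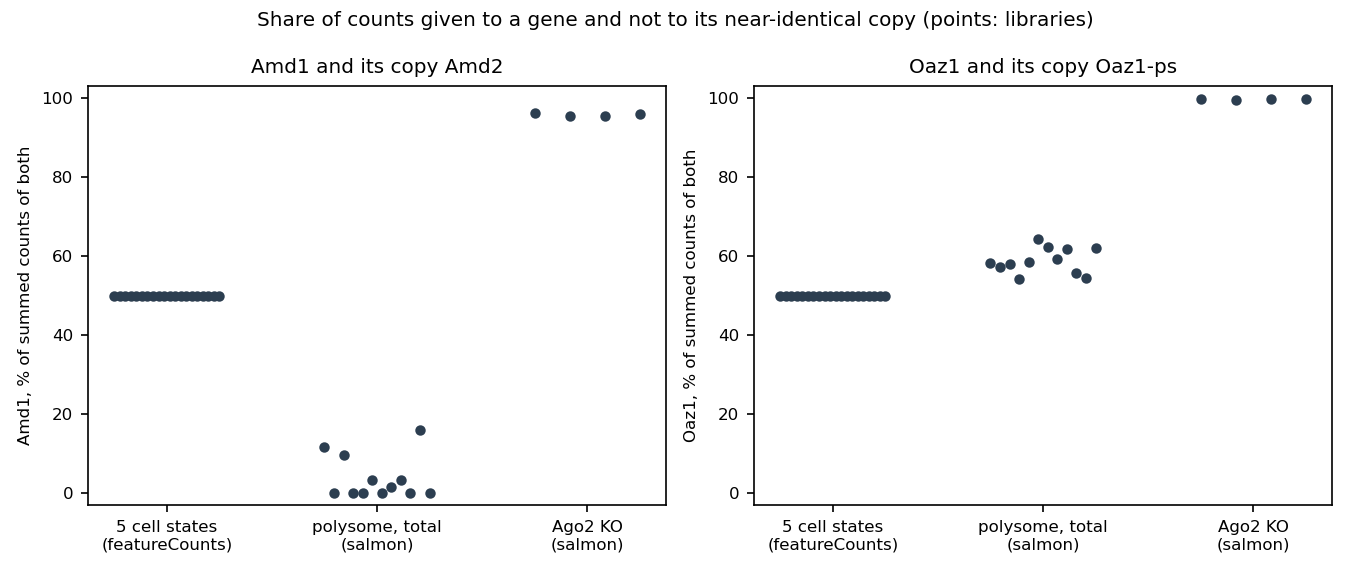
Share of the reads of each pair assigned to the named gene (percent, vertical axis) in every library of the 3 tables: Amd1 of Amd1 plus Amd2, and Oaz1 of Oaz1 plus Oaz1-ps, with 1 point per library. All 20 libraries of the P-body and cytoplasm table sit at 50% for both pairs, while Amd1 lies between 0 and 16.1% in the polysome table and between 95.5% and 96.1% in the Ago2-KO table.

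Library totals were 6769727 to 31185799 reads in the P-body and cytoplasm table, 13308776 to 29362187 in the polysome table and 15624342 to 17486206 in the Ago2-KO table. Nudt21, the knockdown target, was at 89.1 and 92.2 CPM (counts scaled to a library total of 1000000 reads) in control day 3 cytoplasm and at 5.72 and 5.01 in knockdown cytoplasm. Ago2 was at 2.57 to 4.52 CPM in the 4 Ago2-KO libraries. DDX6 was removed as protein, so its mRNA (208 to 238 CPM in control total RNA and 186 to 199 in degron total RNA) checks nothing. The summed naive ES markers held 1455 to 1755 CPM in naive cytoplasm and 109 to 110.3 in primed cytoplasm, with all 6 present in both. The 7 fibroblast markers held 32605 to 35710 CPM in MEF cytoplasm but 10268 to 10813 in MEF P-bodies. Markers of other tissue epithelium reached 5.93 and 86.8 CPM in the MEF P-body libraries against at most 0.0332 in MEF cytoplasm. Nuclear RNAs held 4759 to 6791 CPM in MEF P-bodies against 980 to 1061 in MEF cytoplasm. The part of these RNAs in the results was not tested. In these bulk samples fewer cells of a type and less RNA per cell cannot be told apart.

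P-body enrichment, the log2 fold change of P-body over cytoplasm libraries on TMM-scaled totals, differed among the members and among the cell types. It was tested with edgeR and called at an adjusted p under 0.05 over all genes tested. In naive ES cells 5 of 8 members were called, Amd1, Azin1 and Sms higher in P-bodies and Srm and Oaz1 lower, against 38% of 15630 genes tested. In primed cells 5 of 8 were called, Amd1 and Sms higher and Srm, Odc1 and Oaz2 lower, against 50.7% of all genes. In MEFs 3 of 8 were called, Oaz1, Sat1 and Sms, all higher in P-bodies, against 55.3%. In day 3 control cells 0 of 8 were called, against 0.646% of all genes, in a comparison in which edgeR called 102 of 15786 genes. There 3899 genes had an unadjusted p under 0.05 and DESeq2 called 2105 genes, with Oaz1 the only member (adjusted p = 0.0225). In day 3 Nudt21-knockdown cells 3 of 8 were called, Oaz1, Amd1 and Sat1, all higher, against 21.9%. In Ago2-KO ES cells Amd1 was the only member called, higher in P-bodies, against 6.51%. The members' median log2 enrichment was 0.23 in naive, −0.09 in primed and 0.15 in fibroblast libraries, beside all-gene medians of −0.06, 0.00063 and 0.03. It was 0.19 in day 3 control, 0.16 in knockdown and 0.19 in Ago2-KO cells, beside −0.01, 0.0025 and 0.04.

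Single libraries decided several of these calls. In naive cells Amd1 was the only call that stood whichever library was left out. Leaving out either naive cytoplasm library added calls, but Oaz2 then took opposite signs. It was at −0.20 without naive cytoplasm replicate 1 and at 0.18 without replicate 2. Without primed P-body replicate 1 or 2 the Oaz2 call was lost (adjusted p = 0.151 and 0.0557), and without primed cytoplasm replicate 1 Azin1 was called lower (adjusted p = 0.0153). The MEF calls of Oaz1, Sat1 and Sms stood whichever of the 4 libraries was left out. Without MEF P-body replicate 1, 6 members were called, with Oaz2 and Azin1 lower and Srm higher. Without day 3 control P-body replicate 1, 5 members were called (Odc1, Oaz1, Sat1 and Srm higher, Azin1 lower), and without replicate 2, 4 were (Odc1, Oaz1, Amd1 and Sat1 higher). Without knockdown cytoplasm replicate 1 only Sat1 was called, without replicate 2 none was, and without knockdown P-body replicate 2 Sms was called too (adjusted p = 0.0356). Without either Ago2-KO P-body library no member was called (adjusted p of Amd1 = 0.423 and 0.380). Without Ago2-KO cytoplasm replicate 1, 3 members were called (Amd1, Sat1 and Sms higher), and without replicate 2, 2 were (Amd1 higher, Srm lower). With all groups in 1 fit the primed calls of Odc1 and Oaz2 (adjusted p = 0.115 and 0.390) and the knockdown calls of Oaz1 and Amd1 (0.0512 and 0.0592) were lost. The naive Sms call was lost without TMM (0.0536), and the primed Oaz2 call with DESeq2 (0.0511). In naive cells the split over all genes depended on the scaling, with 3528 genes higher and 2413 lower under TMM but 2876 higher and 4055 lower on library totals alone, where the all-gene median moved by −0.22.

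**Figure D2:**
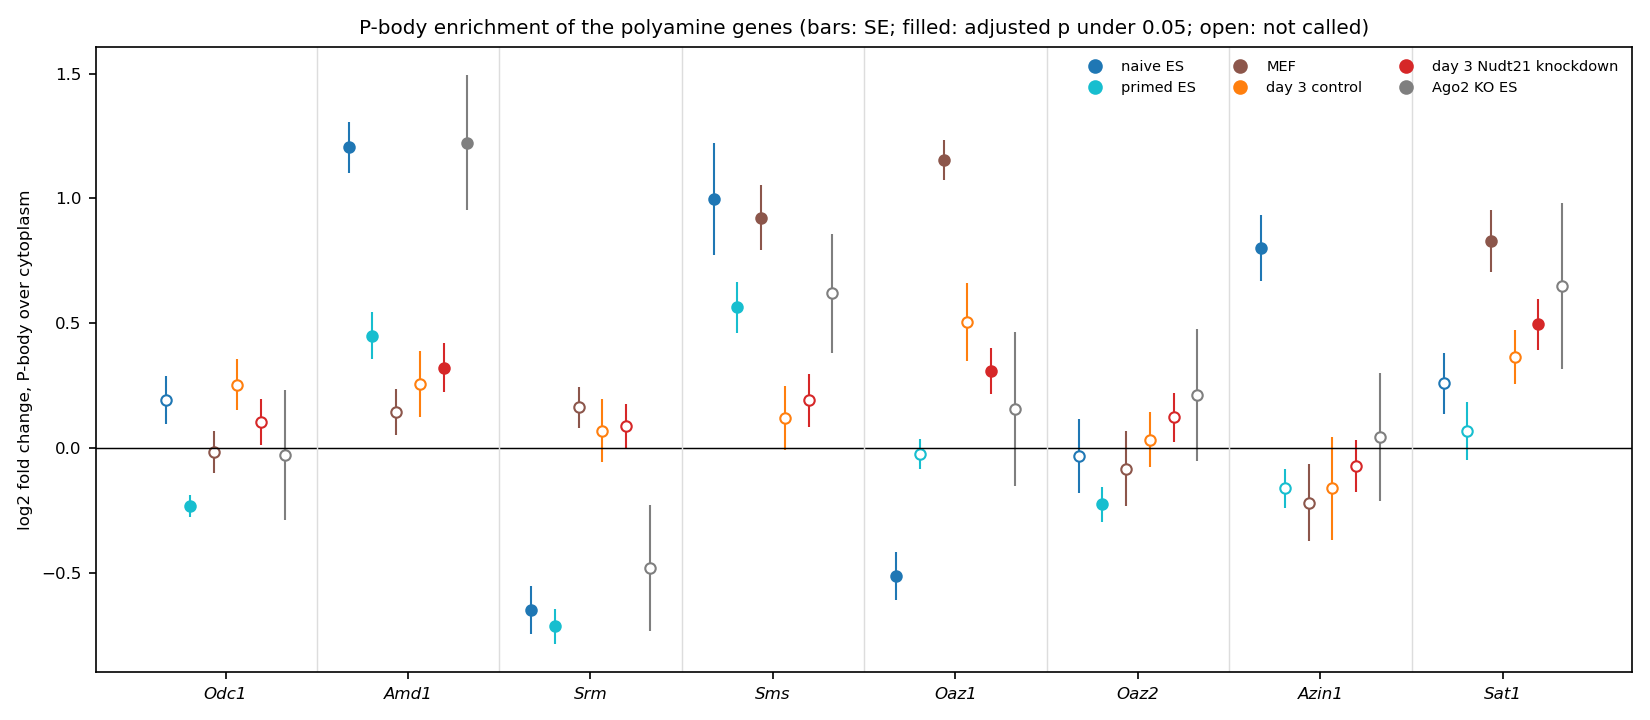
Log2 enrichment in P-bodies over cytoplasm (vertical axis, edgeR estimate ± SE) for the 8 genes in 6 kinds of cell, with filled points for an adjusted p under 0.05. Amd1 reaches 1.20 in naive and 1.22 in Ago2-KO cells but 0.14 in MEFs, and Oaz1 runs from −0.51 in naive cells to 1.15 in MEFs.

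The difference in enrichment between cell types was then tested itself, as an interaction term. Each such fit covered all the groups involved, with its own filter, scaling and estimate of the spread. A difference therefore need not equal the gap between the enrichments fitted separately above. Between naive and primed cells 3 of 8 members differed, against 25.3% of all genes, with Azin1 and Amd1 more enriched in naive cells and Oaz1 less. Between naive cells and MEFs 5 of 8 differed, against 41.3%, with Amd1 and Azin1 more enriched in naive cells and Oaz1, Sat1 and Srm less. Between day 3 control cells and MEFs 1 of 8 differed, Sms, which was less enriched at day 3, against 14.7%. Oaz1, not called in this fit (edgeR adjusted p = 0.0525), was called less enriched at day 3 with DESeq2 (adjusted p = 0.0101). It was also called in edgeR with DESeq2 size factors (0.0459), no filter (0.00626) or a replicate block (0.0232). The same held with all groups in 1 fit (0.00454) and on library totals without TMM (0.0283). Between knockdown and control day 3 cells no member passed, with log2 differences of −0.16 to 0.16, against 0.0118% of all genes (2 of 16973). These contrasts share cytoplasm and P-body libraries with the enrichments above and with each other.

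**Figure D3:**
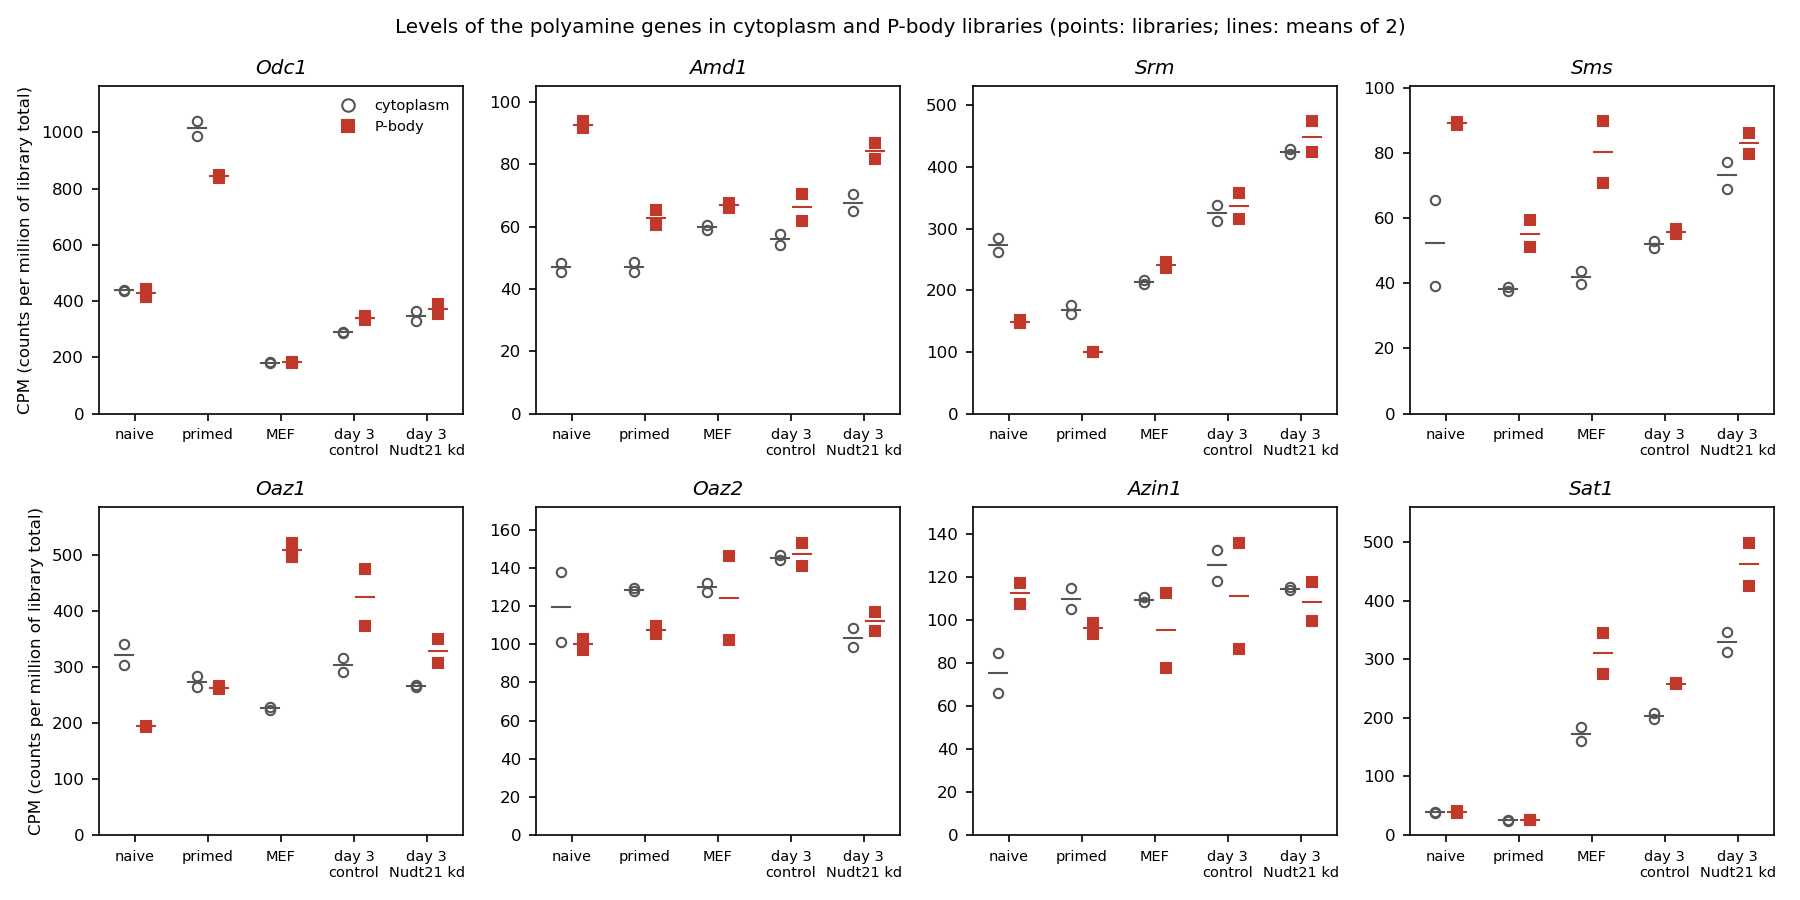
CPM of each of the 8 genes in every library of 5 cell types (vertical axes, 1 panel per gene), with circles for cytoplasm, squares for P-bodies and lines at the mean of 2 libraries. Amd1 and Oaz1 hold their 50% share of the reads of the pair. Odc1 is highest in primed cells, Sat1 is highest in day 3 knockdown cells, and the Oaz1 squares lie below the circles in naive cells and far above them in MEFs.

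Odc1, the first and rate-limiting enzyme, was the member whose cytoplasmic level differed most between the ES cell states, and its log2 enrichment stayed between −0.23 and 0.25 in the 5 cell types of this table. In cytoplasm it was at 989 and 1040 CPM in primed cells, 437 and 440 in naive cells and 178 and 184 in MEFs. In P-bodies it was at 849 and 838 CPM in primed cells, 416 and 445 in naive cells and 185 and 179 in MEFs. The primed P-body libraries both lay below the primed cytoplasm libraries, whereas the 2 fractions overlapped in naive cells and MEFs. Its log2 enrichment was −0.23 ± 0.04 (SE) in primed cells (edgeR adjusted p = 0.000797), 0.19 ± 0.10 in naive cells (adjusted p = 0.171) and −0.01 ± 0.08 in MEFs (adjusted p = 0.903). The naive value was −0.028 on library totals without TMM. In day 3 cells it was at 288 and 289 CPM in control cytoplasm and 348 and 333 in control P-bodies, and at 365 and 330 in knockdown cytoplasm and 390 and 353 in knockdown P-bodies. Ordered by mean, primed cytoplasm stood highest, then primed P-bodies, then both naive fractions, which overlapped. The knockdown fractions and day 3 control P-bodies followed and overlapped with their neighbours, then control cytoplasm, with both MEF fractions lowest and overlapping. Per kilobase of transcript Odc1 held 448 to 471 CPM in primed cytoplasm, 198 to 199 in naive cytoplasm and 80.8 to 83.4 in MEF cytoplasm.

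Amd1 was the member most enriched in naive P-bodies. The 50% share of the Amd1 and Amd2 reads was 45.5 and 48.3 CPM in naive cytoplasm and 91.5 and 93.8 CPM in naive P-bodies. In primed cells it was 45.3 and 48.8 CPM in cytoplasm and 65.3 and 60.4 in P-bodies, and in MEFs 58.8 and 60.6 in cytoplasm and 67.6 and 66.1 in P-bodies. P-bodies lay above cytoplasm in every library of these 3 cell types, with the widest gap in naive cells. The log2 enrichment was 1.20 ± 0.10 in naive cells (2.30-fold, edgeR adjusted p = 0.000878), 0.45 ± 0.09 in primed cells (adjusted p = 0.00142) and 0.14 ± 0.09 in MEFs (adjusted p = 0.219). The naive enrichment exceeded the primed one by 0.61 ± 0.14 (adjusted p = 0.0118) and that of MEFs by 0.87 ± 0.14 (adjusted p = 0.000702). The first of these calls was lost without naive P-body replicate 1 (adjusted p = 0.0505) or 2 (adjusted p = 0.0636). In the Ago2-KO table, where nearly all reads went to Amd1, it was at 147 and 122 CPM in cytoplasm and 308 and 333 in P-bodies. There the log2 enrichment was 1.22 ± 0.27 (adjusted p = 0.0313). With Amd2 reads added the Ago2-KO values were 154 and 127 CPM in cytoplasm and 320 and 348 in P-bodies, and every call of Amd1 in these 2 tables stood.

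The aminopropyl transferases, which act in succession, took opposite sides of the fractionation in ES cells. Srm, which makes spermidine, was at 262 and 284 CPM in naive cytoplasm and 152 and 146 in naive P-bodies. In primed cells it was at 162 and 175 CPM in cytoplasm and 100 and 100 in P-bodies, and in MEFs at 210 and 216 in cytoplasm and 236 and 247 in P-bodies. In both ES states each P-body library lay below the cytoplasm, and in MEFs each lay above it. Its log2 enrichment was −0.65 ± 0.10 in naive cells (1.57-fold lower, edgeR adjusted p = 0.00505), −0.71 ± 0.07 in primed cells (adjusted p = 3.4e-06) and 0.16 ± 0.08 in MEFs (adjusted p = 0.125). The naive value differed from that of MEFs by −1.0 ± 0.13 (adjusted p = 0.000219). In Ago2-KO cells it was at 154 and 118 CPM in cytoplasm and 99.0 and 99.6 in P-bodies, a log2 enrichment of −0.48 ± 0.25 that did not pass (adjusted p = 0.282).

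Sms, which makes spermine, was at 39.2 and 65.7 CPM in naive cytoplasm and 88.8 and 89.8 in naive P-bodies. In primed cells it was at 39.0 and 37.7 CPM in cytoplasm and 51.1 and 59.4 in P-bodies, and in MEFs at 39.8 and 43.9 in cytoplasm and 89.9 and 70.8 in P-bodies. P-bodies were higher in every library of the 3 cell types, though the 2 naive cytoplasm libraries differed widely. The log2 enrichment was 1.0 ± 0.22 in naive cells (2.0-fold, edgeR adjusted p = 0.0206), 0.56 ± 0.10 in primed cells (adjusted p = 0.000599) and 0.92 ± 0.13 in MEFs (1.90-fold, adjusted p = 0.000266). In day 3 control cells it was 53.1 and 50.9 CPM in cytoplasm and 56.7 and 55.2 in P-bodies, a log2 enrichment of 0.12 ± 0.13 (adjusted p = 0.596). The day 3 value differed from that of MEFs by −0.76 ± 0.19 (adjusted p = 0.0260). That call was lost without MEF P-body replicate 1 (adjusted p = 0.0735), either MEF cytoplasm library (0.138 and 0.0789) or either day 3 control cytoplasm library (0.106 and 0.104). Srm and Sms thus stood on opposite sides in both ES states.

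Of the antizymes, Oaz1 lay on opposite sides in naive cells and MEFs, and Oaz2 was called in primed cells alone. The 50% share of the Oaz1 and Oaz1-ps reads was 304 and 341 CPM in naive cytoplasm and 192 and 195 in naive P-bodies. In primed cells it was 264 and 284 CPM in cytoplasm and 267 and 260 in P-bodies, and in MEFs 223 and 229 in cytoplasm and 496 and 522 in P-bodies. Naive P-bodies lay below all other groups and MEF P-bodies above them, and the primed fractions overlapped. The log2 enrichment was −0.51 ± 0.10 in naive cells (1.42-fold lower, edgeR adjusted p = 0.0116), −0.02 ± 0.06 in primed cells (adjusted p = 0.777) and 1.15 ± 0.08 in MEFs (2.22-fold, adjusted p = 6.6e-06). The naive value differed from the primed value by −0.63 ± 0.11 (adjusted p = 0.00454) and from the MEF value by −1.85 ± 0.13 (adjusted p = 1.2e-05), beside an all-gene median of −0.17 for the latter. The first of these calls was lost without primed P-body replicate 1 (adjusted p = 0.0580) or primed cytoplasm replicate 1 (adjusted p = 0.0502). In day 3 control cells Oaz1 was at 291 and 317 CPM in cytoplasm and 374 and 476 in P-bodies, which did not overlap. Its log2 enrichment there was 0.50 ± 0.16 (adjusted p = 0.132). It differed from that of MEFs by −0.61 ± 0.19, with an adjusted p of 0.0525, and of 0.0491 with the Oaz1-ps reads added. Without day 3 control P-body replicate 1 or 2 that difference was −0.50 and −0.85 and passed (adjusted p = 0.00971 and 0.000259).

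Oaz2 was at 101 and 138 CPM in naive cytoplasm and 103 and 97.1 in naive P-bodies. In primed cells it was at 129 and 128 CPM in cytoplasm and 105 and 110 in P-bodies, and in MEFs at 132 and 128 in cytoplasm and 146 and 102 in P-bodies. Only the primed fractions were apart. The log2 enrichment was −0.22 ± 0.07 in primed cells (edgeR adjusted p = 0.0163), −0.03 ± 0.15 in naive cells (adjusted p = 0.884) and −0.08 ± 0.15 in MEFs (adjusted p = 0.677). The naive estimate ran from −0.20 to 0.18 as single libraries were left out.

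Azin1, the antizyme inhibitor, was called higher in naive P-bodies and in no other cell type, and naive cytoplasm held the least of it among the 5 cytoplasm groups of this table. It was at 65.9 and 84.6 CPM in naive cytoplasm and 107 and 117 in naive P-bodies. In primed cells it was at 105 and 115 CPM in cytoplasm and 98.5 and 93.4 in P-bodies, and in MEFs at 108 and 110 in cytoplasm and 113 and 77.8 in P-bodies. The naive fractions were apart with P-bodies higher, the primed fractions were apart with P-bodies lower, and the MEF P-body libraries fell on either side of the cytoplasm. The log2 enrichment was 0.80 ± 0.13 in naive cells (1.74-fold, edgeR adjusted p = 0.0077), −0.16 ± 0.08 in primed cells (adjusted p = 0.108) and −0.22 ± 0.15 in MEFs (adjusted p = 0.261). The naive value was above the primed value by 0.82 ± 0.16 (adjusted p = 0.00721) and above the MEF value by 0.83 ± 0.24 (adjusted p = 0.0214). The latter was lost without naive P-body replicate 1 (adjusted p = 0.0594) or 2 (adjusted p = 0.0977). For its relative Odc1 the difference between naive cells and MEFs was 0.02 ± 0.13 and did not pass (adjusted p = 0.994).

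Sat1, the acetyltransferase of polyamine catabolism, was low in ES cells and high in MEFs and reprogramming cells. It was at 38.4 and 39.1 CPM in naive cytoplasm and 37.8 and 41.7 in naive P-bodies, and at 25.7 and 23.9 in primed cytoplasm and 25.3 and 25.4 in primed P-bodies. In MEFs it was at 160 and 185 CPM in cytoplasm and 345 and 275 in P-bodies. The ES fractions overlapped and the MEF fractions did not. The log2 enrichment was 0.83 ± 0.12 in MEFs (1.78-fold, edgeR adjusted p = 0.000382), 0.26 ± 0.12 in naive cells (adjusted p = 0.148) and 0.07 ± 0.12 in primed cells (adjusted p = 0.658). The naive value differed from the MEF value by −0.76 ± 0.19 (adjusted p = 0.0102), a call lost without naive P-body replicate 1 (adjusted p = 0.0627), MEF P-body replicate 1 (0.180) or either MEF cytoplasm library (0.222 and 0.0789), and with no filter (0.0556).

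In reprogramming cells at day 3, Sat1 was the member with the highest fitted enrichment in the knockdown arm. It was at 197 and 208 CPM in control cytoplasm and 259 and 257 in control P-bodies, and at 347 and 312 in knockdown cytoplasm and 499 and 425 in knockdown P-bodies. P-bodies were above cytoplasm in both, and the knockdown was above the control in both fractions. Its log2 enrichment was 0.36 ± 0.11 in control cells (edgeR adjusted p = 0.125) and 0.50 ± 0.10 in knockdown cells (adjusted p = 0.00791). Oaz1 was at 269 and 265 CPM in knockdown cytoplasm and 308 and 350 in knockdown P-bodies, a log2 enrichment of 0.31 ± 0.09 (adjusted p = 0.0364). The Amd1 share was 57.7 and 54.2 CPM in control cytoplasm, 70.6 and 61.9 in control P-bodies, 70.3 and 65.0 in knockdown cytoplasm and 86.7 and 81.7 in knockdown P-bodies. Its log2 enrichment was 0.26 ± 0.13 in control (adjusted p = 0.283) and 0.32 ± 0.10 in knockdown cells (adjusted p = 0.0392). The 5 other members ran from −0.07 to 0.19 in knockdown cells, with adjusted p from 0.228 to 0.693. Their CPM in control cytoplasm and P-bodies were 312 and 338 against 316 and 358 for Srm, 144 and 147 against 153 and 141 for Oaz2, and 132 and 118 against 136 and 86.4 for Azin1. In knockdown cells they were 428 and 421 against 424 and 475 for Srm, 109 and 98.3 against 117 and 107 for Oaz2, and 114 and 115 against 117 and 99.3 for Azin1. The fractions of these 3 genes overlapped in both arms. Sms held 69.0 and 77.5 CPM in knockdown cytoplasm against 86.4 and 79.9 in knockdown P-bodies, which were apart without passing the test.

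In the Ago2-KO ES cells the spread between libraries was wider, and 7 members did not pass, with log2 enrichments from −0.48 to 0.65 and adjusted p from 0.153 to 0.966. Sat1 was at 101 and 48.1 CPM in cytoplasm and 132 and 103 in P-bodies, and Oaz1 at 422 and 261 in cytoplasm and 419 and 351 in P-bodies. Sms was at 41.4 and 29.5 CPM in cytoplasm and 54.3 and 56.3 in P-bodies. Cytoplasm replicate 1 was above replicate 2 for each of these 3 genes. Odc1 was at 199 and 187 CPM in cytoplasm and 191 and 197 in P-bodies, Oaz2 at 61.2 and 37.1 against 54.1 and 61.3, and Azin1 at 37.1 and 47.5 against 42.8 and 47.3, all overlapping. Ago2-KO and unedited naive cells were deposited in separate tables counted by different tools, so their difference was not tested.

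The cytoplasm libraries show how the levels themselves differed between cell types. Between naive and primed cells 4 of 8 members differed, against 43.8% of all genes. Odc1 was lower in naive cells, at −1.01 ± 0.11 on the log2 scale (2.01-fold lower, edgeR adjusted p = 0.00132), while Srm was higher by 0.89 ± 0.11 (adjusted p = 0.00222), Sat1 by 0.84 ± 0.15 (adjusted p = 0.0076) and Oaz1 by 0.43 ± 0.11 (adjusted p = 0.0240). The remaining members ran from −0.35 to 0.64 and did not pass. Only Odc1 was called without primed cytoplasm replicate 1, and only Odc1 and Srm without replicate 2. The scaling moved the whole comparison: 3569 genes were higher and 3487 lower under TMM, and 2664 higher and 4349 lower on library totals, with a median shift of −0.20, where Oaz1 was no longer called (adjusted p = 0.147).

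Against MEFs, 4 of 8 members differed in naive cytoplasm, beside 71.8% of all genes. Sat1, Azin1 and Amd1 were lower in naive cells, Sat1 at −2.40 ± 0.12 on the log2 scale (5.29-fold lower, edgeR adjusted p = 7.1e-05), Azin1 at −0.79 ± 0.13 (adjusted p = 0.00335) and Amd1 at −0.60 ± 0.11 (adjusted p = 0.00457), and Odc1 was higher by 1.02 ± 0.10 (2.03-fold, adjusted p = 0.00051). Amd1 was no longer called without MEF cytoplasm replicate 1 (adjusted p = 0.0728) or 2 (adjusted p = 0.0785). The members not called ran from −0.38 to 0.26. Of these, Sms lay higher in naive cells without naive cytoplasm replicate 1 and lower without replicate 2. Each of those fits rested on 1 naive library. On library totals without TMM the all-gene median of this comparison moved by 0.25. After 3 days of reprogramming 4 of 8 differed from MEFs, against 69.3%: Odc1 was higher by 0.51 ± 0.06 (adjusted p = 7.5e-07), Srm by 0.45 ± 0.06 (adjusted p = 5.5e-06) and Oaz1 by 0.26 ± 0.06 (adjusted p = 0.000992), and Amd1 was lower, at −0.26 ± 0.08 (adjusted p = 0.00669). These 4 calls stood in each omission of 1 library, and Oaz1 was lost with all groups in 1 fit (adjusted p = 0.116). On library totals without TMM, which shift the all-gene median by 0.16, 7 members were called, with Amd1 not among them. The fibroblast markers, at 32605 to 35710 CPM in MEF cytoplasm, were at 5260 to 5398 at day 3, and the pluripotency markers were at 322 to 332 CPM there. The latter sum includes Pou5f1 and Sox2, which the reprogramming cassette also encodes. The part of either marker set in the result was not tested.

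Most of the members changed with Nudt21 knockdown in day 3 cytoplasm: 7 of 8 members differed from control, against 49.6% of all genes. Catabolic Sat1 was higher by 0.68 ± 0.07 (1.61-fold, edgeR adjusted p = 1.9e-07), Sms by 0.48 ± 0.09 (adjusted p = 0.000183), Srm by 0.37 ± 0.06 (adjusted p = 7.0e-05), Amd1 by 0.26 ± 0.08 (adjusted p = 0.0151) and Odc1 by 0.25 ± 0.06 (adjusted p = 0.0032). Both antizymes were lower, Oaz2 at −0.51 ± 0.07 (adjusted p = 1.4e-05) and Oaz1 at −0.20 ± 0.06 (adjusted p = 0.0129). Azin1 did not pass (−0.15 ± 0.07, adjusted p = 0.111). All 4 synthesis enzymes were thus higher and both antizymes lower in the knockdown. Without control cytoplasm replicate 2 the Oaz1 and Amd1 calls were lost (adjusted p = 0.205 and 0.106) and Azin1 was called lower, and without knockdown cytoplasm replicate 1 the Amd1 call was lost (adjusted p = 0.0934). In the fit over all groups 4 members were called, with Odc1, Oaz1 and Amd1 lost. In the knockdown libraries the summed pluripotency markers Pou5f1, Sox2 and Nanog were higher (709 to 823 CPM against 322 to 332). Of these 3 genes, 2 were at 1 CPM or more in all libraries of each arm. The cassette also encodes Oct4 (Pou5f1) and Sox2, and its reads were not separated from those of the endogenous genes. The fibroblast markers were lower (1631 to 1662 against 5260 to 5398). The sum of the 4 blood markers was higher (102 to 105 against 11.4 to 14.9). In each arm only 1 of the 4 was at 1 CPM or more in all libraries. The part of these markers in the result was not tested.

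Ribosome occupancy, the log2 fold change of ribosome-bound over total RNA of the same lysate, was called above 0 for both decarboxylases, both antizymes, Sms and Sat1. As counted, 5 of 8 members, and with the reads of near-identical copies summed 6 of 8, were called higher in the ribosome-bound fraction in control ES cells and 0 lower, against 42.9% of all genes called in either direction. Odc1 was at 850, 857 and 840 CPM in the 3 ribosome-bound libraries and 662, 665 and 656 in total RNA, which did not overlap. Its occupancy was 0.19 ± 0.06 (edgeR adjusted p = 0.0125), a call lost without total replicate 1 (adjusted p = 0.0574) or 2 (adjusted p = 0.0593). The sum of Amd1 and Amd2 was at 397, 404 and 408 CPM bound and 279, 269 and 231 total, an occupancy of 0.47 ± 0.07 (adjusted p = 4.7e-05). The counts assigned to Amd1 alone, at 0, 6.60 and 13.4 CPM bound and 0, 43.3 and 0 total, gave −1.34 ± 1.13 (adjusted p = 0.377) and cannot be read.

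Sms was at 320, 328 and 317 CPM bound and 242, 242 and 236 total, an occupancy of 0.26 ± 0.06 (edgeR adjusted p = 0.00173). Srm was at 287, 296 and 281 CPM bound and 225, 231 and 267 total, also apart but closer, with 0.09 ± 0.07 (adjusted p = 0.355). Sat1 was at 58.4, 57.4 and 66.7 CPM bound and 40.7, 38.1 and 39.5 total, with 0.45 ± 0.08 (adjusted p = 0.000218). The bound libraries were above the total libraries for all 3 genes. The sum of Oaz1 and Oaz1-ps was at 634, 646 and 660 CPM bound and 400, 388 and 494 total, with 0.43 ± 0.08 (adjusted p = 0.000474). Oaz2 was at 142, 145 and 151 CPM bound and 101, 104 and 116 total, with 0.28 ± 0.07 (adjusted p = 0.00413). Azin1 was the exception, at 170, 173 and 175 CPM bound and 170, 168 and 153 total, with −0.09 ± 0.06 (adjusted p = 0.270). Of the 3 total libraries, replicate 3 had the highest Srm, Oaz1 and Oaz2 values. It also had the lowest Azin1 value and the lowest sum of Amd1 and Amd2. Without this library edgeR called Azin1 lower (−0.14, adjusted p = 0.0382) and Srm higher (0.17, adjusted p = 0.00714). Scaling changed the split over all genes from 2891 higher and 3719 lower to 5167 higher and 2751 lower on library totals, a median shift of 0.17, and there Azin1 was at 0.074 and Srm was called higher (adjusted p = 0.00471).

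**Figure D4:**
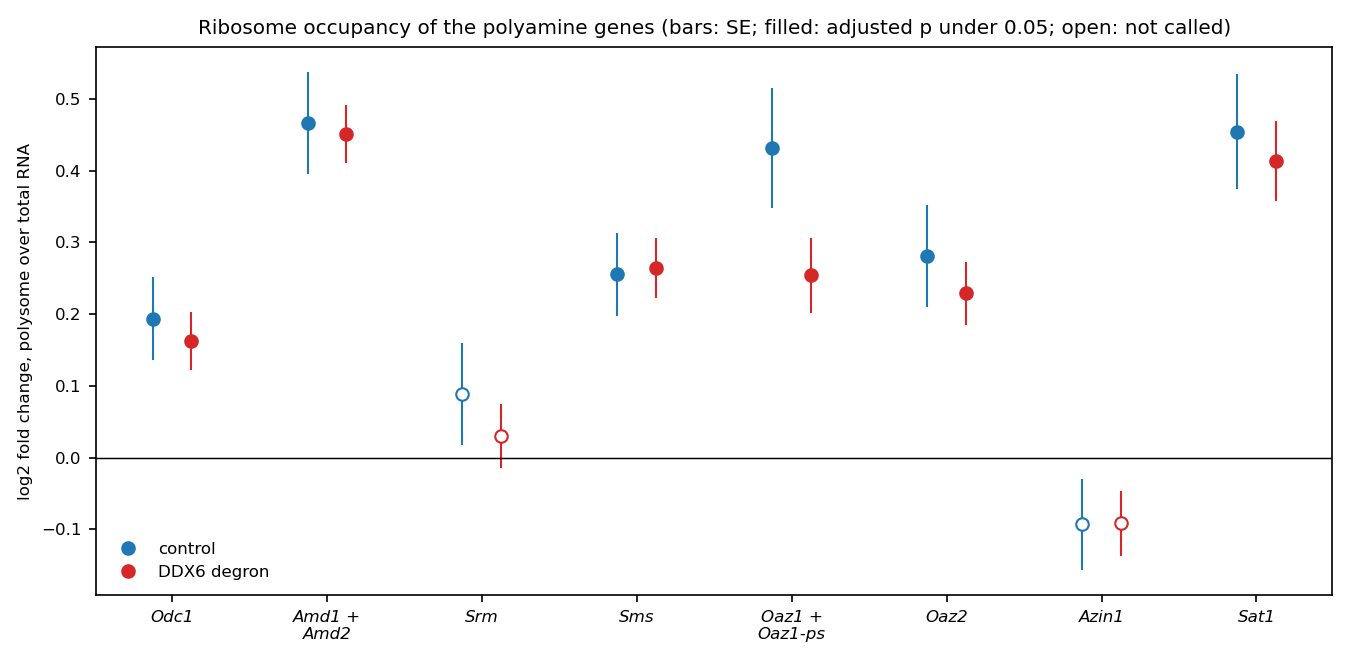
Ribosome occupancy (vertical axis, log2 of ribosome-bound over total RNA, edgeR estimate ± SE, 3 libraries per group) of the 8 genes in control and DDX6-degron ES cells, with filled points for an adjusted p under 0.05. Amd1 and Oaz1 are drawn with the reads of their copies added. The control and degron estimates lie within 0.18 of each other for all 8 genes, with Azin1 and Srm near 0.

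With DDX6 degraded, the same 6 members were called higher in the ribosome-bound fraction once copies were summed, against 50.9% of all genes called. Odc1 was at 740, 732 and 751 CPM bound and 591, 590 and 568 total, an occupancy of 0.16 ± 0.04 (edgeR adjusted p = 0.00186). The sum of Amd1 and Amd2 was at 357, 358 and 353 CPM bound and 233, 224 and 231 total, with 0.45 ± 0.04 (adjusted p = 2.2e-09). The Oaz1 and Oaz1-ps sum was at 599, 581 and 603 CPM bound and 425, 485 and 406 total, with 0.25 ± 0.05 (adjusted p = 0.00028). None of these fractions overlapped. As counted, Oaz1 was no longer called with all groups in 1 fit (adjusted p = 0.0542), and Amd1 alone, at 41.3, 0 and 34.0 CPM bound and 0, 0 and 7.44 total, gave 2.91 ± 0.86 (adjusted p = 0.00666) and cannot be read. Sms was at 295, 288 and 286 CPM bound and 212, 208 and 218 total (0.26 ± 0.04, adjusted p = 1.1e-05), and Sat1 at 56.5, 59.5 and 56.1 bound and 36.3, 37.2 and 40.2 total (0.41 ± 0.06, adjusted p = 1.6e-06). Oaz2 was at 139, 142 and 141 CPM bound and 103, 110 and 104 total (0.23 ± 0.04, adjusted p = 0.000125). Srm and Azin1 again did not pass, although without total replicate 2 Azin1 was called lower (−0.12, adjusted p = 0.0374). Srm was at 300.4, 314 and 302 CPM bound and 263, 277 and 251 total (0.03 ± 0.04, adjusted p = 0.623), and Azin1 at 163, 171 and 174 bound and 158, 152 and 166 total (−0.09 ± 0.05, adjusted p = 0.0978). Over all genes 3759 were higher and 4193 lower, and 6133 higher and 2994 lower on library totals, a median shift of 0.18 that put Azin1 at 0.092 and Srm among the calls (adjusted p = 0.000192).

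No change of occupancy on acute DDX6 degradation was detected for any member. With copies summed the degron minus control differences ran from −0.18 to 0.01, with adjusted p from 0.875 to 1.0. The Oaz1 and Oaz1-ps sum had the lowest value, −0.18 ± 0.10 (adjusted p = 0.875), and the Amd1 and Amd2 sum had −0.02 ± 0.08 (adjusted p = 0.990). edgeR called 0 of 16345 genes (0%), 844 had an unadjusted p under 0.05, and DESeq2 called 4. As counted, with the Oaz1-ps reads not added, 1 member was called without control total replicate 3, Oaz1, lower in the degron. In total RNA 0 of 8 members were called between degron and control, against 3.31% of all genes. The closest to the threshold were Odc1, at −0.18 ± 0.05 (adjusted p = 0.0506), and Sms, at −0.18 ± 0.05 (adjusted p = 0.0686). In each of the 3 degron total libraries both genes lay below every control total library. DESeq2 called both of them lower (adjusted p = 0.0121 and 0.0242), and without control total replicate 3 edgeR called 5 members as counted: Odc1 and Sms lower, Oaz1 and Srm higher, and Amd1 lower on counts of 1 copy that cannot be read.

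The wider polyamine pathway was followed with a list of 25 further genes, among them the hypusine enzymes and their substrate Eif5a and genes of oxidation, arginine and methionine metabolism and transport. It includes Amd2, which shares its reads with Amd1. In naive P-bodies 6 of 22 tested were higher and 5 lower, with a median of −0.24 beside −0.06 over all genes, of which 38% were called. In primed cells 6 of 25 were higher and 9 lower (50.7% of all genes called), and in MEFs 6 of 23 were higher and 4 lower (55.3%). In day 3 cells 0 of 23 were called in the control (0.646% of all genes), and 3 of 22 were higher and 2 lower in the knockdown (21.9%). In Ago2-KO cells 2 of 22 were higher and 0 lower (6.51%). Mtap, which recycles the methylthioadenosine that spermidine and spermine synthesis releases, was higher in naive P-bodies by 1.14 ± 0.10 (edgeR adjusted p = 0.00109), in Ago2-KO P-bodies by 1.25 ± 0.26 (adjusted p = 0.0271) and in primed P-bodies by 0.44 ± 0.06 (adjusted p = 4.2e-05). Mat2a, which makes S-adenosylmethionine, was higher in naive P-bodies by 1.15 ± 0.11 (adjusted p = 0.00121) and lower in primed P-bodies, at −0.84 ± 0.06 (adjusted p = 1.4e-07), a difference of 1.85 ± 0.12 (adjusted p = 0.000102).

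Eif5a, the translation factor that carries the spermidine-derived residue hypusine, was lower in naive P-bodies, at −0.55 ± 0.09 (edgeR adjusted p = 0.00683), and in primed P-bodies, at −0.49 ± 0.04 (adjusted p = 8.8e-07). Its modifying enzymes Dhps and Dohh were higher in MEF P-bodies by 0.76 ± 0.10 (adjusted p = 0.00024) and 0.66 ± 0.10 (adjusted p = 0.000585), and Dhps was lower in primed P-bodies, at −0.52 ± 0.09 (adjusted p = 0.000578). Eif5a2, the paralog of Eif5a, was higher in naive P-bodies by 2.20 ± 0.44 (adjusted p = 0.0144) and in primed P-bodies by 0.94 ± 0.09 (adjusted p = 2.3e-06), and lower in MEF P-bodies, at −0.58 ± 0.14 (adjusted p = 0.00721). Smox, spermine oxidase, was higher in naive than in primed cytoplasm by 2.43 ± 0.31 (adjusted p = 0.00247) and than in MEF cytoplasm by 2.22 ± 0.31 (adjusted p = 0.00174). Ribosome occupancy was called higher for 4 of 21 and lower for 6 in control cells (42.9% of all genes called), and higher for 6 of 21 and lower for 6 in degron cells (50.9%). Eif5a was higher by 0.30 ± 0.07 in control cells (adjusted p = 0.00268). The 6 lower in control cells were Oat, ornithine aminotransferase, at −1.42 ± 0.07 (adjusted p = 7.1e-11), the amino acid transporter genes Slc7a1 at −1.09 ± 0.07 (adjusted p = 8.9e-10) and Slc3a2 at −0.63 ± 0.07 (adjusted p = 1.1e-06), Ahcy at −0.54 ± 0.07 (adjusted p = 3.9e-06), Mat2a at −0.40 ± 0.07 (adjusted p = 9.2e-05) and Paox, an acetylpolyamine oxidase, at −0.29 ± 0.08 (adjusted p = 0.00743). In the cytoplasm comparisons 6 of 24 were higher and 5 lower in naive against primed cells (43.8% of all genes called), and 11 of 24 higher and 7 lower in naive cells against MEFs (71.8%). At day 3 9 of 23 were higher and 8 lower against MEFs (69.3%), and 6 of 23 were higher and 6 lower in the knockdown against control (49.6%).

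A list of 8 genes known for regulatory upstream reading frames (Atf4, Atf5, Ddit3, Ppp1r15a, Ppp1r15b, Ifrd1, Eif5 and Slc35a4) was set beside the members, as Amd1 carries such a frame. Its ribosome occupancy was called higher for 6 of 8 in control cells (42.9% of all genes called in either direction) and 7 of 8 in degron cells (50.9%), with none lower and medians of 0.27 and 0.22 beside 0.02 over all genes in both. In total RNA 3 of 8 were higher in the degron and none lower (3.31% of all genes). Its P-body calls were 1 higher and 2 lower in naive cells (38%), 2 higher and 4 lower in primed cells (50.7%), and 3 higher and 2 lower in MEFs (55.3%), with 1 higher in Ago2-KO cells (6.51%) and 0 called in either day 3 arm (0.646% and 21.9%). In cytoplasm 6 of 8 were lower and 1 higher at day 3 against MEFs (69.3%), and 3 of 8 were higher and 1 lower in the knockdown (49.6%).

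Of all genes with a mean of at least 10 CPM (10267 genes), those whose log2 levels followed Odc1 most closely over the 10 groups of the P-body and cytoplasm table were Kat8 (Pearson r = 0.983), Vps16 (0.980), Ubr7 (0.972), Thnsl1 (0.967) and Epcam (0.962). Oaz1 was followed by its copy Oaz1-ps (1.0), with which it shares reads, and then by Aimp2 (0.985) and the ribosomal protein genes Rpl23a (0.980), Rpl13a (0.977) and Rps23 (0.976). These are descriptions over group means that share libraries and depth.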

How the data were processed

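RNA from 36 mouse libraries in 16 groups was analysed from 3 deposited tables of expected counts (estimated counts that need not be whole), grouped by the sample labels. According to the study's methods, P-body and cytoplasm libraries were aligned to mm10 with HISAT2 and counted over refGene exons with featureCounts, and polysome libraries were quantified with salmon on mm10 refGene within nf-core. Ago2-KO libraries were deposited as salmon estimated counts by Ensembl gene. How reads shared by near-identical genes were divided is not given in the sources used here. In the deposited expected counts 17.6% to 25.7%, 5.05% to 6.19% and 11.6% to 13.1% of values per library were not whole in the 3 tables. A further 10 deposited tables hold the authors' own log2 fold changes and adjusted p-values and were not used.

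Counts were rounded, genes with fewer than 10 reads summed over the libraries of a fit were removed, and each comparison was fitted on its own groups with TMM scaling and the quasi-likelihood test of edgeR 4.0.16 in R 4.3.3 (limma 3.58.1). Tests were two-sided with Benjamini-Hochberg adjustment over all genes tested and a threshold of 0.05, and the SE was the log2 fold change divided by the square root of F. Differences between enrichments or occupancies were interaction terms. The main fits treated fractions as independent, although fractions were drawn from the same material, and no label says which libraries were drawn together. CPM are counts scaled to a library total of 1000000 reads, so their ratio can differ from a TMM-based fold change. Alternatives were DESeq2 1.42.0 (the study's tool), its size factors, filterByExpr, no filter, all groups in 1 fit, a replicate block, each library left out and, added after seeing the data, library totals without TMM and copies summed.

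Replicates differed beyond sampling noise in all 24 pairs (chi-square per degree of freedom 1.78 to 306). Members were named by symbol, and similarity was Pearson's r of log2(CPM + 1) over 10 group means. The wider lists were described by their counts, with values for some genes because of their roles. Other genes of these lists were given values because their ribosome occupancy was called lower. Values of single genes from the wider lists were not followed over the alternatives. The members and lists were chosen with earlier results of these data known. Sequences, coordinates and transcript lengths came from mm10 GENCODE M21 transcripts, read with Biopython 1.88 in Python 3.11.15, and figures were drawn with matplotlib 3.10.9.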

Additional observations from a re-analysis of the deposited data

Results flagged for a closer look

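In 9 cases a member's enrichment in P-bodies differed between cell types by a direct test of the difference (edgeR interaction term, adjusted p under 0.05). Between naive and primed ES cells the log2 differences were −0.63 for Oaz1, 0.82 for Azin1 and 0.61 for Amd1. Between naive ES cells and MEFs they were −1.85 for Oaz1, 0.83 for Azin1, 0.87 for Amd1, −0.76 for Sat1 and −1.0 for Srm. Between day 3 control cells and MEFs the value was −0.76 for Sms. The 3 genes that differed between naive and primed cells also differed between naive cells and MEFs, in the same directions, but the same naive libraries enter both differences.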

How the results depend on the processing

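All members were followed in the P-body enrichment and ribosome occupancy fits. In the other comparisons only members called in the main fit were followed. Oaz1 in day 3 minus MEF enrichment and Odc1 and Sms in degron total RNA were followed too. Calls gained by other members in those comparisons are not in the counts given next. Over the alternatives that keep all libraries, 706 of the followed values kept their direction and side of the threshold, 22 gained a call, 16 lost one and 8 changed sign. Over fits without 1 library the counts were 364, 29, 46 and 17. Where an arm was left with 1 library, that lone sample is assumed to vary like the other groups. Counts with 2 libraries a group are limited by the spread of single pairs.

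No label says what the replicate numbers mark. Correlations of same-numbered deviations ran from −0.048 to 0.602, and not every sample of the polysome groups correlated best with its own number. The value of 0.602 was in Ago2-KO cells, where both numbers correlated best with themselves, but 2 pairs were too few to establish a pairing. With the replicate block, 802 genes were called in day 3 control cells, 4178 in Ago2-KO cells, 82 for degron against control total RNA, 1 for knockdown minus control enrichment and 6 for degron minus control occupancy. With it 3 members were called in Ago2-KO cells, with Sat1 (adjusted p = 0.0169) and Sms (adjusted p = 0.0231) beside Amd1, and 2 for day 3 minus MEF enrichment.

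With all groups in 1 fit, 5128 genes were called in primed, 3308 in day 3 control and 2100 in day 3 knockdown enrichment, 1138 for degron against control total RNA and 4877 for knockdown against control cytoplasm. Members called were then 3, 1, 1, 2 and 4 in that order, and 2 for day 3 minus MEF enrichment. DESeq2 called 2105 genes in day 3 control, 1731 in Ago2-KO, 832 for degron total RNA, 26 for knockdown minus control enrichment and 4 for degron minus control occupancy, with 1 member in day 3 control, 2 for degron total RNA and 2 for day 3 minus MEF. With filterByExpr 202 genes were called in day 3 control. With no filter 1940 were called there, 2643 in Ago2-KO, 863 for degron total RNA, 62 for knockdown minus control enrichment and 16 for degron minus control occupancy, with 1 member in day 3 control, 1 for degron total RNA, 2 for day 3 minus MEF and 1 for degron minus control occupancy. On library totals without TMM 0 genes were called in day 3 control, with 1 member for degron total RNA, 7 for day 3 against MEF cytoplasm and 2 for day 3 minus MEF. With DESeq2 size factors 716 genes were called in Ago2-KO, with 1 member for degron total RNA and 2 for day 3 minus MEF. With copies summed 2 members were called for day 3 minus MEF. The cause of these shifts was not tested.

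Among the followed values, signs changed without TMM for Odc1 (−0.028 in naive, 0.0039 in MEF and 0.0067 in Ago2-KO enrichment) and for Azin1 occupancy (0.074 in control and 0.092 in degron cells). They changed for Odc1 in MEFs with filterByExpr (0.017), for Oaz2 in day 3 control cells with all groups in 1 fit (−0.0097) and for Amd1 control occupancy with copies summed (0.47). The main splits also moved on library totals for day 3 minus MEF enrichment, from 1677 higher and 898 lower to 1294 and 1143.

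As single libraries were left out, genes called ranged from 2056 to 10018 in naive, 5595 to 9976 in MEF, 82 to 8752 in day 3 control, 1017 to 5729 in knockdown and 446 to 5617 in Ago2-KO enrichment. They ranged from 6 to 3373 for degron total RNA, 2242 to 9799 for naive against primed cytoplasm, 2293 to 7089 for naive minus primed, 259 to 5546 for day 3 minus MEF and 0 to 2185 for knockdown minus control enrichment, and 0 to 52 for degron minus control occupancy. Members called ranged from 1 to 8 in naive, 3 to 6 in MEF, 0 to 5 in day 3 control, 0 to 4 in knockdown and 0 to 3 in Ago2-KO enrichment, 0 to 5 for degron total RNA (Amd1 as counted among the 5), 1 to 6 for naive against primed and 3 to 7 for naive against MEF cytoplasm. They ranged from 2 to 5 for naive minus primed, 3 to 5 for naive minus MEF and 0 to 2 for day 3 minus MEF enrichment, and 0 to 1 for degron minus control occupancy. Followed log2 values whose sign changed ranged from −0.20 to 0.18 (naive Oaz2), −0.084 to 0.032 (primed Oaz1), −0.035 to 0.022 (MEF Odc1), −0.36 to 0.17 (MEF Oaz2) and −0.51 to 0.036 (MEF Azin1). In day 3 control cells they ranged from −0.00022 to 0.068 (Oaz2), −0.49 to 0.11 (Azin1) and −0.050 to 0.18 (Srm), and in knockdown cells from −0.20 to 0.057 (Azin1). In Ago2-KO cells they ranged from −0.11 to 0.34 (Oaz1), −0.071 to 0.41 (Oaz2) and −0.30 to 0.29 (Azin1). Occupancy ranged from −2.16 to 9.93 for Amd1 alone in control cells and from −0.011 to 0.067 for Srm in degron cells.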
